A study of Mus musculus with 10 samples.

Results

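Fatty acid oxidation and ketone body synthesis were examined in mouse liver through 31 genes, of the 53392 genes in the deposited table. The genes were chosen by symbol for their place in these pathways, and all 31 passed the filter on low counts that kept 15392 genes for testing. They encode the enzymes and carriers of 3 oxidation routes and of ketone synthesis: 18 mitochondrial proteins, 8 peroxisomal proteins, 2 microsomal hydroxylases, 2 enzymes of ketone body metabolism and the pantetheinase Vnn1. The study compared livers of mice with hepatic deletion of Fbp1 (Fbp1-deleted, n = 5, replicates 6 to 10) with wild-type livers (WT, n = 5, replicates 1 to 5). Fbp1 codes for fructose bisphosphatase, which serves gluconeogenesis. All mice were C57BL/6 and 24 weeks old, and their livers were snap-frozen before RNA extraction. The sources used here state neither how the deletion was made nor the sex or feeding state of the mice.

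In the liver, most long-chain fatty acids are oxidised in mitochondria, which they enter as carnitine esters, and are shortened there in a repeated cycle of dehydrogenation, hydration, oxidation and thiolysis. Peroxisomes run a similar cycle with enzymes of their own on very long, branched and dicarboxylic chains and pass shortened products on to mitochondria, while microsomal CYP4A enzymes hydroxylate the chain end and so begin the route to dicarboxylic acids. In fasting the liver turns much of the acetyl-CoA into ketone bodies, and the nuclear receptor PPARA with its partner RXR drives many genes of all these routes.

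Of the 31 genes, 6 passed the test, and 5 of these were assigned to the peroxisome. Each gene was given 1 compartment here, and where its protein lies in these livers was not measured. Ehhadh, Hsd17b4, Eci2 and Crot rose in Fbp1-deleted liver by 0.45 to 0.70 on the log2 scale, and the thiolase gene Acaa1a fell by 0.53. Of the 18 mitochondrial genes, Etfdh rose by 0.59, and the other 17 did not pass the test. In all, 5 of the 31 genes were higher and 1 was lower (edgeR quasi-likelihood F test, Benjamini-Hochberg adjusted p under 0.05 over 15392 genes). Over all genes tested, 20.6% were called, 10.6% higher and 10% lower, so that the count of 6 of 31 called is near the background of the comparison. The share of calls that were higher depended on the scaling (51.5% with TMM, 40.3% with upper-quartile factors, 37.7% with library totals alone), while the 31 genes gave 5 higher and 1 lower with each of these. The median log2 change was 0.10 over the 31 genes and 0.01 over all genes tested. The groups did not overlap for 2 of the 31 genes, Hsd17b4 and Crot, and for 13.5% of all genes tested.

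**Figure D1:**
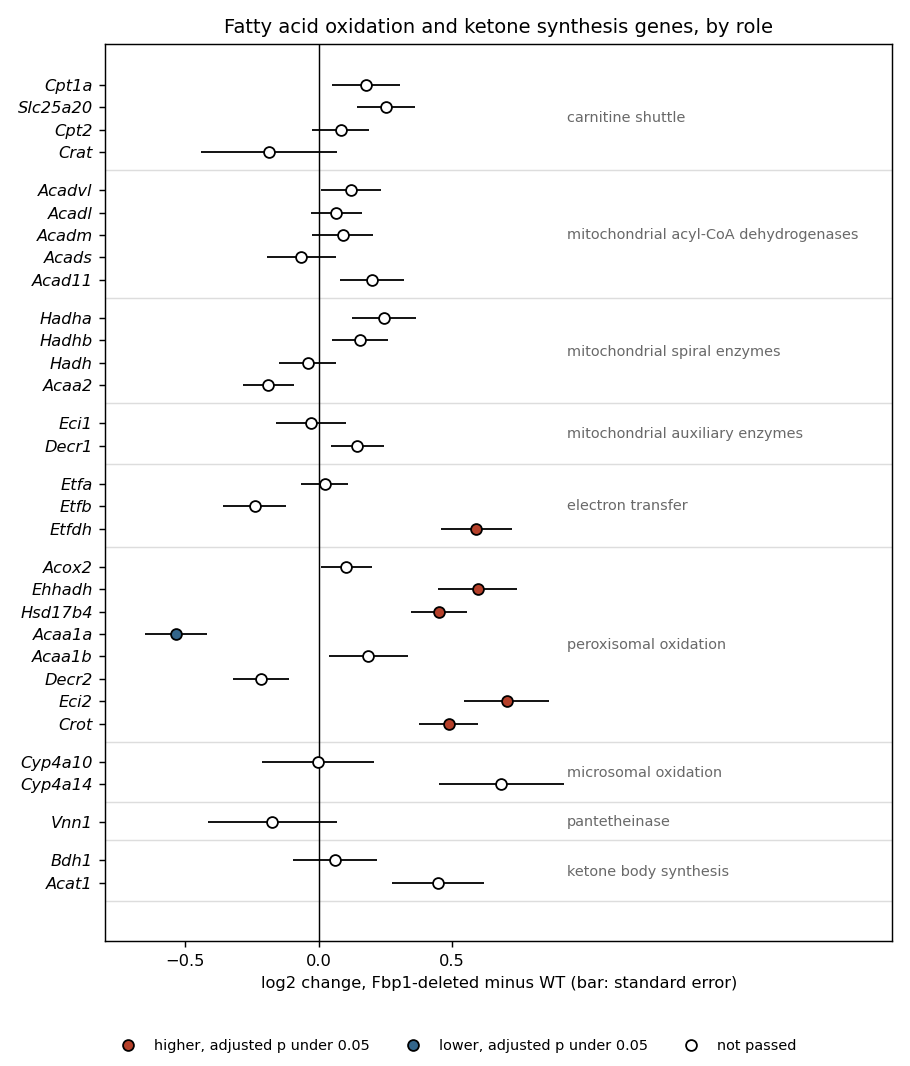
Log2 change of each of the 31 genes, Fbp1-deleted minus WT, with its standard error, grouped by role (n = 5 livers per group); filled points passed an adjusted p of 0.05 (edgeR). The filled points are Etfdh at 0.59, 4 peroxisomal genes between 0.45 and 0.70, and Acaa1a at -0.53.

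Levels are given as CPM (counts scaled to library size and composition), in the order of replicates 6 to 10 for Fbp1-deleted and 1 to 5 for WT. Fbp1 itself had 7.38, 8.36, 13.4, 8.31 and 9.48 CPM in Fbp1-deleted livers, against 989, 1050, 778, 933 and 798 CPM in WT livers. All Fbp1-deleted libraries were far below all WT libraries (log2 change -6.60, SE 0.193, adjusted p = 6.13e-11, edgeR). Library totals lay between 17778395 and 23894812 counts, and no member had fewer than 644 counts in a library. On the first principal component, which held 37.6% of the variance, Fbp1-deleted replicate 8 stood at 6.39 and the other Fbp1-deleted libraries between 35.3 and 54.5, against -46.6 to -18.2 in WT libraries. Of the 31 genes, 12 had their lowest Fbp1-deleted level in replicate 8 and 14 in replicate 10. Hepatocyte markers (Alb, Apoa1, Ttr, Serpina1c, Cps1, Tat) summed to 83647 to 95649 CPM in Fbp1-deleted and 50818 to 93671 CPM in WT libraries. Of these 6 genes, 2 were called higher and 4 did not pass, where 10.6% of all genes tested were higher. The median log2 change of the list was 0.18 and the largest 1.67. Adipocyte and muscle markers summed to at most 0.724 and 1.503 CPM in Fbp1-deleted libraries, against 1.03 and 2.004 CPM in WT libraries, and Lep and Myh4 had no count in any library. Xist stood at 342 to 696 CPM in every library and the 4 Y-linked genes at no more than 1.77 CPM.

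The peroxisomal pathway gave 4 higher and 1 lower of 8 genes, with a median log2 change of 0.32, where 10.6% of all genes tested were higher and 10% lower. The middle steps of the peroxisomal cycle are carried out by multifunctional enzymes, Ehhadh for dicarboxylic and straight chains and Hsd17b4 for branched chains and bile acid precursors. The last step is the thiolase step, for which mice have a pair of closely related genes, Acaa1a and Acaa1b. The sequences just before a RefSeq start of Ehhadh, Acaa1a and Acaa1b are shown because Ehhadh and Acaa1a changed in opposite directions. Acaa1b was added because it lies 182582 bases from Acaa1a on chromosome 9. The start used for Acaa1a lies inside the annotated span of the gene, which begins at base 119339676, so it is not the outermost start. The sequences come from RefSeq (GRCm38.p6), run 5′ to 3′ on the strand of the gene up to the base before the start, and carry the CCAAT box (CCAAT or, on the other strand, ATTGG) in capitals.
Ehhadh, chr16:21787835-21787964, minus strand: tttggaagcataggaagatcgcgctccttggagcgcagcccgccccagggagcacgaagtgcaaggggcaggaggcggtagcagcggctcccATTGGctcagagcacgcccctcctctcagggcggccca
Acaa1a, chr9:119341164-119341293, plus strand: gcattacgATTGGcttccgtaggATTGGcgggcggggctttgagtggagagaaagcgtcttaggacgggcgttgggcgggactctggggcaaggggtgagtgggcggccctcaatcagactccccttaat
Acaa1b, chr9:119157094-119157223, minus strand: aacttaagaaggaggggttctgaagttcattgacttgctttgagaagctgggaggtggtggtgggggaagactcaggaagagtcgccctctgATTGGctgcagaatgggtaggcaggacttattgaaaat

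A CCAAT box stands in each of these 3 stretches. It was looked for after the sequences had been seen, and it is common: 33.8% of the 32851 promoters in the table held one in the 250 bases before the start, as did 12 of the 25 promoters of members (48%). In those 250 bases Ehhadh had a GC content of 60.4% and 12 CpG pairs. Acaa1a had 53.6% and 10 pairs, and Acaa1b 41.6% and 2 pairs. A global alignment of the Acaa1a and Acaa1b stretches of 250 bases matched 137 bases, which is 48.2% of the aligned positions, gaps included. No other pair of promoters was aligned, so this share has no background and does not show whether the stretches are related.

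The promoters were also searched, on both strands, for the element of the PPARA-RXR dimer, AGGTCANAGGTCA, a repeat of AGGTCA with 1 base between. The table holds a promoter for 23 of the 31 genes, each from 250 bases before to 50 bases after the start. None of the 25 promoters of these genes held the element exactly or with 1 mismatch, against 0.0396% and 0.554% of all 32851 promoters. With up to 2 mismatches it stood in 3 of the 25 promoters, those of Acox2, Etfa and Slc25a20, and in 3.86% of all promoters. The matches on the strand of the gene were AGGACAGAGGTGA in Acox2, whose leftmost base is base 10 after the start, and AGGTGAAAGGTCG in Slc25a20, from base 7 after the start. The match in Etfa began 77 bases before the start and read TTACCTTTGCCCT on the strand of the gene, with the element on the other strand. None of these 3 genes passed the test. No promoter of a gene that did pass held a match, among the 5 of those 6 genes whose promoter is in the table, which says only that these letters are not in that window. For Acaa1a, Eci2 and Etfdh the window lies inside the annotated span of the gene, so the outermost start was not searched.

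Ehhadh (chromosome 16, 21761287 to 21787807, GRCm38), which hydrates and dehydrogenates enoyl-CoA esters in the peroxisome, had 509.6, 482, 326, 634 and 496 CPM in Fbp1-deleted livers, against 276, 335, 350.2, 333 and 327 CPM in WT livers. Replicate 9 was the highest, replicate 8 lay within the WT range, and the other 4 Fbp1-deleted livers were above every WT liver. The mean was 489 ± 109.8 CPM in Fbp1-deleted and 324 ± 28.4 CPM in WT liver (SD, n = 5 each), a log2 change of 0.59 (SE 0.147, adjusted p = 0.0125, edgeR). Hsd17b4, the multifunctional enzyme that also acts on bile acid precursors, had 595, 588, 471, 620.1 and 498 CPM in Fbp1-deleted livers, against 365, 396, 430.0, 407 and 430.4 CPM in WT livers. Every Fbp1-deleted liver was above every WT liver, and replicate 8 came closest to them. Hsd17b4 averaged 554 ± 65.6 CPM in Fbp1-deleted and 406 ± 27.1 CPM in WT liver (SD, n = 5 each), a log2 change of 0.45 (SE 0.105, adjusted p = 0.00917, edgeR).

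Eci2 (chromosome 13, 34977748 to 35027096), an isomerase that moves the double bond of unsaturated chains into the place the cycle needs, had 512, 546, 344, 648 and 466 CPM in Fbp1-deleted livers, against 258, 263, 380.1, 330.4 and 312 CPM in WT livers. The groups overlapped only through Fbp1-deleted replicate 8, which was below WT replicate 3. The log2 change of 0.70 was the largest of the 31 genes (SE 0.159, adjusted p = 0.00776, edgeR), a fold of 1.63. Eci2 shares 17.3% of its 31-base words with other genes. Its exons overlap those of Gm16984 on the other strand, and the library does not keep the strand. Crot (chromosome 5, 8966033 to 8997324), which makes the carnitine esters in which shortened chains leave the peroxisome, had 447, 357, 373, 385 and 433 CPM in Fbp1-deleted livers, against 294, 339, 244, 264 and 283 CPM in WT livers. The groups did not overlap, and replicate 8 was not the lowest of the Fbp1-deleted livers here. The log2 change of Crot was 0.49 (SE 0.111, adjusted p = 0.00795, edgeR). Its exons overlap those of Gm37153 on the other strand and of Gm27941, and it shares 7.34% of its 31-base words with other genes. Without Fbp1-deleted replicate 8, the log2 changes were 0.71 for Ehhadh, 0.50 for Hsd17b4, 0.82 for Eci2 and 0.51 for Crot, and all 4 passed (adjusted p between 0.000693 and 0.00671, edgeR).

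Acaa1a (chromosome 9, 119339676 to 119350299, plus strand), a thiolase that releases acetyl-CoA in the last step of the cycle, had 233, 288, 251, 240.1 and 196 CPM in Fbp1-deleted livers, against 376, 371, 347, 288 and 367 CPM in WT livers. Replicate 7 of the Fbp1-deleted livers and replicate 4 of the WT livers were at the same rounded level, and the other 4 Fbp1-deleted livers were below every WT liver. Acaa1a averaged 242 ± 33.2 CPM in Fbp1-deleted and 349.8 ± 36.2 CPM in WT liver (SD, n = 5 each), a log2 change of -0.53 (SE 0.116, adjusted p = 0.0063, edgeR). On the same chromosome, 182582 bases away, Acaa1b (119148023 to 119157093, minus strand) encodes the other thiolase of this step. Acaa1b had 1427, 1795, 1249, 1412 and 1407 CPM in Fbp1-deleted livers, against 1505, 1383, 1188, 885 and 1448 CPM in WT livers. The groups overlapped, and the log2 change of 0.19 did not pass (95% interval -0.13 to 0.50, adjusted p = 0.402, edgeR). The genes share sequence: 16.9% of the 31-base words in the exons of Acaa1a also occur in Acaa1b, and 40.0% of those of Acaa1b occur in Acaa1a, so the authors' counting had to divide some reads between them. In all, Acaa1a shares 23.4% and Acaa1b 50.1% of these words with other genes. On the other strand, exons of Myd88 overlap those of Acaa1a, and exons of Dlec1 overlap those of Acaa1b. The sum of Acaa1a and Acaa1b was 1700 ± 224 CPM in Fbp1-deleted and 1632 ± 288 CPM in WT liver (SD, n = 5 each). Per kilobase of exon, Acaa1b stood at 13.8, 14.0, 11.2, 13.2 and 16.1 times the level of Acaa1a in Fbp1-deleted livers, against 9.01, 8.39, 7.70, 6.91 and 8.87 times in WT livers. The 5 ratios in Fbp1-deleted livers were all above the 5 in WT livers. This ratio restates the levels behind the fall of Acaa1a for a chosen pair, and it was not tested.

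The 3 other peroxisomal genes did not pass the test. Acox2, an oxidase for bile acid precursors and branched chains, had 129, 135, 151, 136 and 129.6 CPM in Fbp1-deleted livers, against 113, 127, 134, 116 and 144 CPM in WT livers (log2 change 0.10, 95% interval -0.10 to 0.31). Decr2, the reductase for unsaturated chains, had 152, 151, 185, 179.9 and 157 CPM in Fbp1-deleted livers, against 186, 197, 198, 162 and 217 CPM in WT livers. The Decr2 groups overlapped, with a log2 change of -0.22 (95% interval -0.44 to 0.01, adjusted p = 0.156, edgeR).

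**Figure D2:**
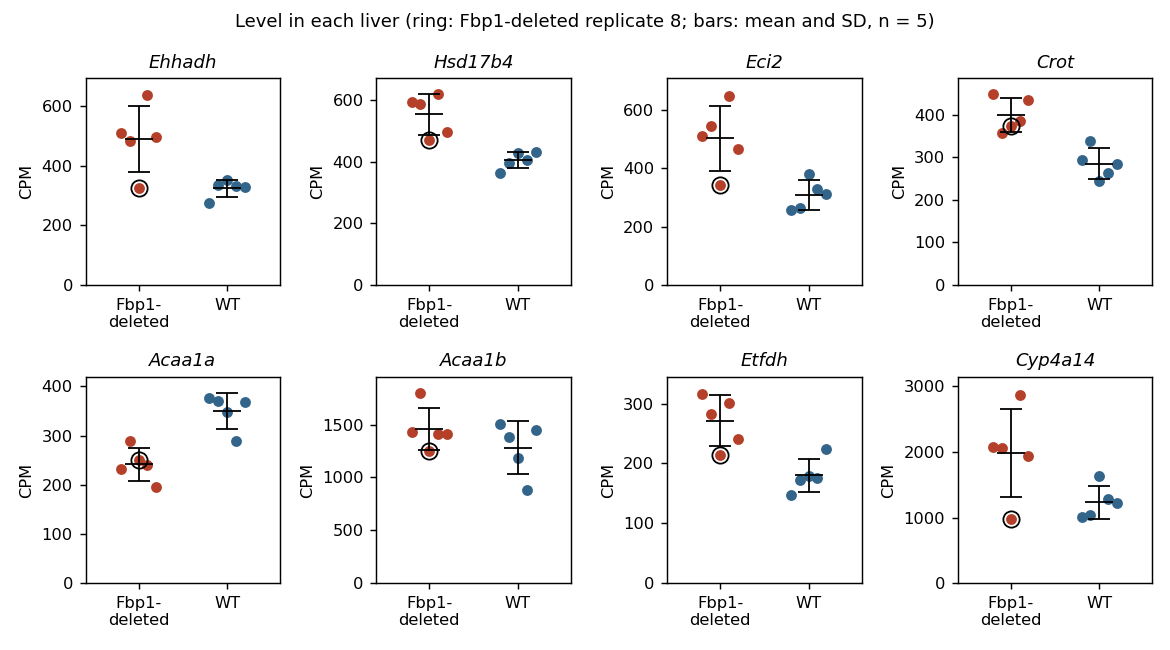
Level in CPM (vertical axis from 0) of 8 genes in each Fbp1-deleted and WT liver, with mean and SD (n = 5 each); a ring marks Fbp1-deleted replicate 8. The ringed liver lies within the WT range for Ehhadh, Eci2 and Etfdh, below every WT liver for Cyp4a14, and above every WT liver for Hsd17b4 and Crot.

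In mitochondria, the change in Etfdh stood beside small differences in the rest of the chain. Etfdh (chromosome 3, 79603788 to 79629500), the oxidoreductase that passes electrons of the acyl-CoA dehydrogenases to ubiquinone, had 317, 283, 214, 301 and 241 CPM in Fbp1-deleted livers, against 147, 172, 179.9, 177 and 224 CPM in WT livers. Of the Fbp1-deleted livers, 4 were above every WT liver, and replicate 8 was below WT replicate 5. Etfdh averaged 271 ± 42.5 CPM in Fbp1-deleted and 180.0 ± 27.8 CPM in WT liver (SD, n = 5 each), a log2 change of 0.59 (SE 0.133, adjusted p = 0.00767, edgeR). Exons of 4930579G24Rik overlap those of Etfdh on the other strand, and Etfdh shares 9.18% of its 31-base words with other genes. Etfa and Etfb encode the electron transfer flavoprotein that hands electrons to Etfdh. Etfa had 386, 355, 340.1, 393 and 380.0 CPM in Fbp1-deleted livers, against 387, 377, 365, 331 and 366 CPM in WT livers, a log2 change of 0.02 (95% interval -0.17 to 0.21). Etfb had 348, 469.8, 398, 357 and 315 CPM in Fbp1-deleted livers, against 482, 455, 425, 389 and 481 CPM in WT livers, a log2 change of -0.24 (95% interval -0.49 to 0.01). Both sets of groups overlapped. Etfb shares 47.3% of its 31-base words with an overlapping annotated gene, Gm45233, so its counts are uncertain. Per kilobase of exon, Etfdh stood at 0.154 to 0.201 of the level of Etfa in Fbp1-deleted livers, against 0.0929 to 0.150 in WT livers, without overlap. This ratio restates the levels behind the rise of Etfdh, and it was not tested.

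The other 17 mitochondrial genes had log2 changes between -0.24 and 0.25 and adjusted p between 0.114 and 0.901 (edgeR). Of these, Slc25a20 alone had an unadjusted p under 0.05, and none passed with DESeq2 or limma-voom. Their 95% intervals lay between -0.49 and 0.50, except that of Crat, which ran from -0.75 to 0.38. The carnitine shuttle moves long chains into the matrix. Its entry enzyme Cpt1a, the liver isoform that malonyl-CoA inhibits, had 576, 511, 549, 638 and 525 CPM in Fbp1-deleted livers, against 376, 449.8, 599, 555 and 497 CPM in WT livers. The groups overlapped, with a log2 change of 0.18 (95% interval -0.10 to 0.45, adjusted p = 0.354, edgeR). The translocase Slc25a20 had the largest positive change of the 17: it stood at 193, 192, 155, 192 and 150.2 CPM in Fbp1-deleted livers, against 135, 142, 171, 139 and 153 CPM in WT livers (log2 change 0.25, 95% interval 0.02 to 0.49, adjusted p = 0.114, edgeR). Cpt2, which returns the chain to coenzyme A inside, had a log2 change of 0.08, and Crat, which makes short-chain carnitine esters, -0.19. Crat varied more between livers, at 71.9, 80.7, 56.7, 71.5 and 35.5 CPM in Fbp1-deleted livers, against 47.6, 56.1, 84.4, 64.3 and 108 CPM in WT livers.

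None of the 5 acyl-CoA dehydrogenase genes, which act on chains of different length in the opening step of the cycle, passed the test or had an unadjusted p under 0.05. Their log2 changes were 0.12 for Acadvl, 0.07 for Acadl, 0.09 for Acadm, -0.07 for Acads and 0.20 for Acad11. The very-long-chain enzyme gene Acadvl had 577, 676, 549.9, 559 and 476 CPM in Fbp1-deleted livers, against 452, 501, 546, 533 and 579.7 CPM in WT livers. The medium-chain enzyme gene Acadm had 475, 456, 357, 381 and 357 CPM in Fbp1-deleted livers, against 349, 382, 383, 348 and 442 CPM in WT livers. In both genes the groups overlapped over most of their range. Acadvl shares 33.2% of its 31-base words with Dvl2, whose exons overlap it on the other strand, and the library does not keep the strand.

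Hadha and Hadhb encode the subunits of the trifunctional protein, which carries out the later steps for long chains. They lie head to head on chromosome 5, Hadha from 30118304 to 30155162 and Hadhb from 30155248 to 30184593, with 85 bases between their annotated spans. That stretch is shown because it separates the GENCODE spans of genes whose products form 1 complex (RefSeq sequence, GRCm38.p6, plus strand, capitals for the whole stretch). The RefSeq starts used for the promoters lie further apart, and the 250 bases before each of them share 228 bases.
Hadha to Hadhb, chr5:30155163-30155247: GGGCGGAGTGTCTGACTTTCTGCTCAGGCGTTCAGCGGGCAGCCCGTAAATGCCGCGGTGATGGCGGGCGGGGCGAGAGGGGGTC

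Hadha had 436, 434, 398, 459 and 365 CPM in Fbp1-deleted livers, against 268, 329, 395, 382 and 392 CPM in WT livers. Replicate 10 was within the WT range and the other 4 Fbp1-deleted livers were above it, replicate 8 narrowly, and the log2 change was 0.24 (95% interval -0.01 to 0.50, adjusted p = 0.168, edgeR). Hadhb had 244, 222, 199, 236 and 184 CPM in Fbp1-deleted livers, against 175, 182, 203, 209 and 206 CPM in WT livers, a log2 change of 0.15 (95% interval -0.07 to 0.38). Per kilobase of exon, Hadha stood at 1.46 ± 0.0634 of the level of Hadhb in Fbp1-deleted liver and at 1.36 ± 0.121 in WT liver (SD, n = 5 each), and the ranges overlapped. Hadhb shares 23.7% of its 31-base words with other annotated genes. Acaa2, the thiolase of the matrix, had 896, 989.6, 1025, 958 and 818 CPM in Fbp1-deleted livers, against 1060.3, 1113, 1072, 1018 and 1081 CPM in WT livers. Its Fbp1-deleted livers were below every WT liver except for replicate 8, which was just above WT replicate 4 (log2 change -0.19, 95% interval -0.39 to 0.01, adjusted p = 0.174, edgeR). The remaining matrix genes, Hadh of the third step and Eci1 and Decr1 for unsaturated chains, had log2 changes of -0.04, -0.03 and 0.14.

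Microsomal oxidation was represented by Cyp4a10 and Cyp4a14, fatty acid omega-hydroxylases and PPARA targets, which lie 22121 bases apart on chromosome 4. Cyp4a14 had 2076, 2056, 984, 2867 and 1932 CPM in Fbp1-deleted livers, against 1004, 1039, 1631, 1282 and 1219 CPM in WT livers. Of the Fbp1-deleted livers, 4 were above every WT liver, while replicate 8 was below every WT liver. The log2 change was 0.68 (95% interval 0.17 to 1.19) and did not pass (adjusted p = 0.0581, edgeR). It passed without Fbp1-deleted replicate 8 (adjusted p = 0.00186), without WT replicate 3 (adjusted p = 0.0415), and with DESeq2 on all libraries (adjusted p = 0.0140). Replicate 8 was the lowest Fbp1-deleted and WT replicate 3 the highest WT liver, so leaving either out widens the difference of the means. Under every other setting Cyp4a14 did not pass. Its adjusted p was up to 0.136 with 1 library left out (edgeR) and up to 0.184 over all settings. Cyp4a10 had 832, 816, 550.2, 850.3 and 829 CPM in Fbp1-deleted livers, against 546, 556, 1217, 775 and 792 CPM in WT livers. The WT livers spread more than the Fbp1-deleted livers and covered them all (log2 change -0.00, 95% interval -0.49 to 0.48). Cyp4a10 shares 44.9% of its 31-base words with other genes, 36.5% with Cyp4a32 alone, and Cyp4a14 shares 1.99% with other genes. Per kilobase of exon, Cyp4a14 stood at 2.02, 2.04, 1.45, 2.73 and 1.89 times the level of Cyp4a10 in Fbp1-deleted livers, against 1.49, 1.52, 1.09, 1.34 and 1.25 times in WT livers. Replicate 8 was within the WT range of this ratio and the other 4 Fbp1-deleted livers were above it. Vnn1, a PPARA target that splits pantetheine into cysteamine and pantothenate, the vitamin used to make coenzyme A, had 98.9, 90.4, 58.0, 73.5 and 47.6 CPM in Fbp1-deleted livers, against 68.4, 70.4, 102, 56.8 and 119 CPM in WT livers. Its groups overlapped (log2 change -0.17, 95% interval -0.70 to 0.35).

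**Figure D3:**
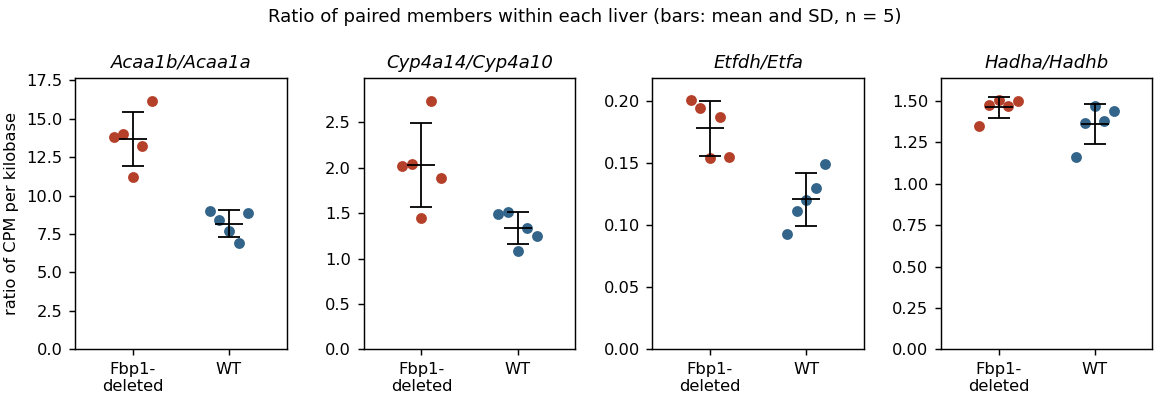
Ratio of the levels per kilobase of exon (vertical axis from 0) for 4 pairs of genes in each Fbp1-deleted and WT liver, with mean and SD (n = 5 each). Acaa1b over Acaa1a lies between 11.2 and 16.1 in Fbp1-deleted livers and between 6.91 and 9.01 in WT livers, and Etfdh over Etfa also separates the groups, while Cyp4a14 over Cyp4a10 and Hadha over Hadhb overlap. The ratios restate the levels of chosen pairs and were not tested.

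For ketone bodies, neither of the 2 genes passed, though Acat1 had an unadjusted p of 0.0210. Acat1, the matrix thiolase that joins acetyl-CoA into acetoacetyl-CoA and also acts in isoleucine breakdown, had 543, 509, 466, 444 and 302 CPM in Fbp1-deleted livers, against 293, 317, 327, 264 and 460.4 CPM in WT livers. Fbp1-deleted replicate 10 lay within the range of the other WT livers, and WT replicate 5 was above Fbp1-deleted replicates 9 and 10. The log2 change was 0.45 (95% interval 0.08 to 0.81, adjusted p = 0.0806, edgeR). The adjusted p was 0.0235 without Fbp1-deleted replicate 10, the lowest of its group, and 0.0259 without WT replicate 5, the highest of its group (edgeR). Under every other setting Acat1 did not pass (adjusted p up to 0.185, edgeR). Bdh1, which reduces acetoacetate to beta-hydroxybutyrate, had 260.4, 285, 271, 203 and 165 CPM in Fbp1-deleted livers, against 208, 230.2, 230.1, 182 and 287 CPM in WT livers. The groups overlapped throughout (log2 change 0.06, 95% interval -0.28 to 0.40), and 12.1% of its 31-base words are shared with the overlapping gene Gm15743.

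Levels can be set beside each other only per length. In WT liver the highest of the 31 genes per kilobase of exon were Acaa2 at 705 ± 22.7, Acaa1b at 653 ± 129, Cyp4a14 at 475 ± 96.3, Etfb at 383 ± 34.0 and Cyp4a10 at 368 ± 129 CPM per kilobase (SD, n = 5). Acaa2 and Acaa1b did not differ beyond their spread, nor did Etfb and Cyp4a10, and Acaa1b came before Acaa2 when the longest transcript was used as the length. In Fbp1-deleted liver, Acaa2 stood at 618, Acaa1b at 743 and Cyp4a14 at 762 CPM per kilobase. The lowest in WT liver were Etfdh at 24.0 ± 3.70 and Crat at 13.4 ± 4.47 CPM per kilobase (SD, n = 5). By the longest transcript Crat stayed the lowest, at 17.0, while Etfdh, at 48.1, stood above Vnn1 at 34.4, Acox2 at 43.6 and Hadhb at 44.5 CPM per kilobase of transcript.

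Summed per liver, the 18 mitochondrial genes reached 2196 ± 169 CPM per kilobase in Fbp1-deleted and 2267 ± 113 in WT liver (SD, n = 5 each), a log2 ratio of -0.05. The sum of the 8 peroxisomal genes was 1388 ± 146 CPM per kilobase in Fbp1-deleted and 1175 ± 136 in WT liver, a log2 ratio of 0.24. The microsomal pair summed to 1130 ± 312 CPM per kilobase in Fbp1-deleted and 843 ± 225 in WT liver, and the ketone pair to 182 ± 36.6 in Fbp1-deleted and 147 ± 29.8 in WT liver (SD, n = 5 each). The ranges of the groups overlapped in each compartment. The peroxisomal sum holds Acaa1b, which made up more of it than any other gene, and the sums were not tested. In bulk tissue, fewer cells of a type and less RNA per cell cannot be told apart.

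**Figure D4:**
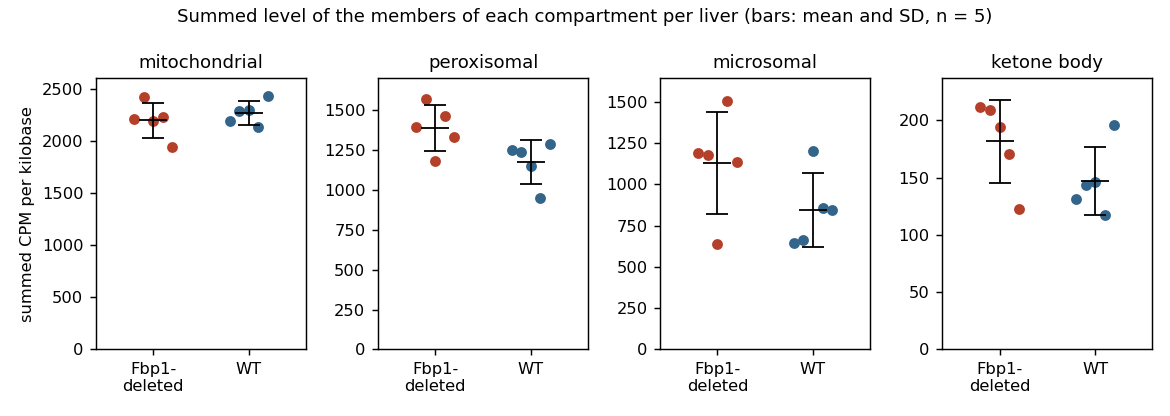
Summed level of the genes of each compartment, in CPM per kilobase of exon (vertical axis from 0), in each Fbp1-deleted and WT liver, with mean and SD (n = 5 each). The mitochondrial sums are 1941 to 2416 in Fbp1-deleted and 2130.5 to 2426 in WT livers, and the peroxisomal sums 1182 to 1572 in Fbp1-deleted and 948 to 1286 in WT livers.

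Other genes of the same pathways were counted from 8 lists at the threshold of 0.05, to be read beside the 10.6% of all genes tested that were higher and the 10% that were lower. Of 17 other peroxisomal oxidation genes, 3 rose and 3 fell (median log2 change -0.02). The number higher was 1 with upper-quartile factors, library totals alone or no filter and without Fbp1-deleted replicate 9 or WT replicate 1 or 2, and the number lower was 5 with DESeq2 and without WT replicate 4. Scp2, a sterol carrier with a thiolase form, rose to 2287 ± 239 CPM in Fbp1-deleted liver, against 1482 ± 164 CPM in WT liver (SD, n = 5 each; log2 change 0.63, adjusted p = 0.00194, edgeR). Those that fell were the very-long-chain transporter Abcd2 (log2 change -1.48), Hacl1, a lyase of branched-chain alpha-oxidation (-1.02), and Pipox, an oxidase of pipecolate and sarcosine (-0.54). Of 16 peroxisome biogenesis genes, 2 rose and 1 fell (median 0.13). The number higher ranged between 0 and 6 when 1 library was left out, with 6 higher and 2 lower without Fbp1-deleted replicate 8, and was 5 with DESeq2 and 0 with library totals alone. Without WT replicate 4, 2 genes were lower. Pex26, the membrane anchor of the import ATPases, fell to 24.7 ± 4.61 CPM in Fbp1-deleted liver, against 64.8 ± 19.2 CPM in WT liver (SD, n = 5 each; log2 change -1.39, adjusted p = 0.00105, edgeR). Pex3 and Pex13 rose by 0.43 and 0.38, both narrowly. The call of Pex3 was lost with library totals alone (adjusted p = 0.0513) and without Fbp1-deleted replicate 6, 9 or 10 or WT replicate 2 or 5. That of Pex13 was lost when any library but Fbp1-deleted replicate 8 was left out (adjusted p up to 0.124), with upper-quartile factors (0.104) or library totals alone (0.114), the stricter filter (0.0526), limma-voom (0.0699) or no robust shrinkage (0.0505), and without the most abundant genes (0.0518).

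Of 9 other mitochondrial acyl-CoA genes, none rose with edgeR, DESeq2 or limma-voom. With edgeR 3 fell (median -0.21), against 5 with DESeq2, and 1 in the fits without Fbp1-deleted replicate 6, 7 or 9 or WT replicate 2 or 5. The 3 were Ivd of leucine breakdown (log2 change -0.77, adjusted p = 0.000519, edgeR), the short-chain hydratase Echs1 (-0.37) and Acad10 (-0.37). The call of Ivd held in each run without 1 library, whereas that of Echs1 was lost without Fbp1-deleted replicate 6, 7 or 9 or WT replicate 1, 2 or 5 and that of Acad10 without any 1 of the Fbp1-deleted libraries or WT replicate 2, 3 or 5 (adjusted p up to 0.116). Acad10 did not pass with limma-voom either (adjusted p = 0.0570). Of 11 carnitine and fatty acid entry genes, 3 rose and 1 fell (median 0.22), and with no filter 1 rose and 0 fell. Acaca, which makes the malonyl-CoA that inhibits Cpt1a, rose to 301 ± 25.2 CPM in Fbp1-deleted liver, against 105 ± 21.7 CPM in WT liver (SD, n = 5 each; log2 change 1.52, adjusted p = 1.23e-05, edgeR). Mlycd, which degrades malonyl-CoA, fell to 131 ± 12.5 CPM in Fbp1-deleted liver, against 165 ± 12.9 CPM in WT liver (log2 change -0.33, adjusted p = 0.0276, edgeR). The muscle isoform Cpt1b, at 5.57 to 15.4 CPM in Fbp1-deleted and 0.765 to 5.25 CPM in WT livers, and the carnitine transporter Slc22a5 rose by 1.68 and 0.71 on the log2 scale. The calls of Mlycd, Cpt1b and Slc22a5 were lost with no filter (adjusted p = 0.0674, 0.107 and 0.0916, edgeR) and without Fbp1-deleted replicate 6 or 9 or WT replicate 5. Mlycd also lost its call without Fbp1-deleted replicate 10 or WT replicate 2, Cpt1b without Fbp1-deleted replicate 7 or WT replicate 1, and Slc22a5 without any of these 4 (adjusted p up to 0.0829 with 1 library left out).

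Of 10 other microsomal genes tested, 3 rose and 1 fell (median -0.11). With no filter 0 rose, as was so without WT replicate 2, and 1 rose without Fbp1-deleted replicate 7 or 9 or WT replicate 3 or 5. With upper-quartile factors, library totals alone or without WT replicate 1, 2 fell. Cyp4a32 rose to 41.7 ± 18.6 CPM in Fbp1-deleted liver, against 17.6 ± 5.58 CPM in WT liver (SD, n = 5 each; log2 change 1.24), and its call was lost without WT replicate 2 (adjusted p = 0.0598, edgeR) and with no filter (adjusted p = 0.0769). Cyp4a31 and Cyp4f15 rose by 1.52 and 0.30. Both calls were lost without Fbp1-deleted replicate 7 or 9 or WT replicate 2, 3 or 5, that of Cyp4a31 also without Fbp1-deleted replicate 6 or WT replicate 1, and that of Cyp4f15 without Fbp1-deleted replicate 10 or WT replicate 4 (adjusted p up to 0.114). With no filter neither passed (adjusted p = 0.135 for Cyp4a31 and 0.128 for Cyp4f15), nor did Cyp4f15 with upper-quartile factors (0.104) or library totals alone (0.130). Cyb5a, the cytochrome that donates electrons to microsomal oxidases, fell by 0.52. Of 7 other genes of ketone body handling, 3 rose and 1 fell (median 0.28). They include the monocarboxylate and ketone body transporter Slc16a1 (log2 change 1.11, adjusted p = 4.38e-05, edgeR), the cytosolic acetoacetyl-CoA synthetase Aacs (1.17) and the cytosolic dehydrogenase Bdh2 (-1.23).

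Of 16 genes that control fatty acid oxidation, 4 rose and 1 fell (median -0.10). The number higher was 2 without Fbp1-deleted replicate 6 or 7, and the number lower was 3 with upper-quartile factors or library totals alone, 2 with DESeq2 and without WT replicate 1 or 4, and 0 without Fbp1-deleted replicate 6 or 9 or WT replicate 2 or 5. The coactivator Ppargc1a had 69.1, 51.7, 25.3, 87.5 and 90.9 CPM in Fbp1-deleted livers, against 10.4, 10.1, 9.91, 10.3 and 10.2 CPM in WT livers. Every Fbp1-deleted liver was above every WT liver, replicate 8 by the least (log2 change 2.67, adjusted p = 0.000266, edgeR). The hormone Fgf21 had 16.4, 18.6, 4.51, 16.6 and 2.98 CPM in Fbp1-deleted livers, against 1.87, 1.23, 2.87, 2.08 and 1.44 CPM in WT livers (log2 change 2.64, adjusted p = 0.00744, edgeR). Fbp1-deleted replicates 8 and 10 were close to the WT livers in Fgf21 and the other 3 far above. Esrra rose by 0.54 and Rxra fell by 0.36. Esrra did not pass in the fits that left out Fbp1-deleted replicate 6 or 7, nor did Rxra in those that left out Fbp1-deleted replicate 6 or 9 or WT replicate 2, 3 or 5 (adjusted p up to 0.0679). Ppara had 97.4, 71.2, 83.4, 79.7 and 76.1 CPM in Fbp1-deleted livers, against 77.5, 97.3, 153, 106 and 98.3 CPM in WT livers. The groups overlapped and the log2 change of -0.38 did not pass (adjusted p = 0.0969, edgeR), although it passed with upper-quartile factors (adjusted p = 0.0458), with library totals alone (adjusted p = 0.0401) and without WT replicate 1 (adjusted p = 0.0403). Of 14 PPARA targets outside oxidation that were tested, 6 rose and 2 fell (median 0.29). The number higher was 3 with no filter and without Fbp1-deleted replicate 7 or 9 or WT replicate 5. The lipid droplet protein gene Plin2 and the glycerol phosphate dehydrogenase gene Gpd1 rose by 0.83 and 1.42, and the acyl-CoA thioesterase genes Acot3 and Acot4 fell by 2.02 and 0.95.

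Markers of some other cells and of liver zones differed between the groups. Their counts are to be read beside the 10.6% of all genes tested that were higher and the 10% that were lower. Of the Kupffer cell list 3 of 5 genes fell, with sums of 134 to 188 CPM in Fbp1-deleted and 168 to 238 CPM in WT livers, and of the list for other leukocytes 1 of 6 fell, with sums of 7.47 to 11.4 CPM in Fbp1-deleted and 14.1 to 18.4 CPM in WT livers. Of 5 endothelial genes 1 rose, and the other 4, which did not pass, had log2 changes between -0.38 and -0.20 (median of the list -0.25). The endothelial sums were 120.5 to 196 CPM in Fbp1-deleted and 169 to 198 CPM in WT livers. Of 6 stellate genes 1 rose narrowly (adjusted p = 0.0491, edgeR) and 5 did not pass, with 2 below 0 and a median log2 change of 0.28. The stellate sums were 185 to 249.8 CPM in Fbp1-deleted and 139.9 to 207 CPM in WT livers. Of 5 cholangiocyte markers none passed (edgeR; 2 had an unadjusted p under 0.05), with sums of 5.90 to 10.3 CPM in Fbp1-deleted and 7.48 to 9.94 CPM in WT livers. Of 3 red blood cell markers none passed or had an unadjusted p under 0.05, with sums of 83.4 to 226.0 CPM in Fbp1-deleted and 118 to 228 CPM in WT livers. Of 7 periportal genes 3 rose and 4 did not pass, with 2 below 0 and a median log2 change of 0.17. The periportal sums were 11230.2 to 13559 CPM in Fbp1-deleted and 5680 to 8190.3 CPM in WT livers. Of 7 pericentral genes 2 fell and 5 did not pass (median log2 change -0.49), with sums of 5937 to 6675 CPM in Fbp1-deleted and 7167 to 10277 CPM in WT livers. The part of these differences in the values of the oxidation genes was not tested.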

How the data were processed

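Total RNA of 10 frozen livers was made into mRNA libraries that do not keep the strand and sequenced, per the labels' protocols and the series' design text, which speaks of biological replicates. The authors deposited 1 table of estimated counts per gene, made with Salmon on GRCm38 per the submitters' processing notes, which also name CASAVA and give no versions. An adjustment for transcript length is not stated. Because Salmon's model shares reads out among similar transcripts, counts of close paralogs can be off. The size of this error was not measured, and it may differ between libraries. All values were whole (0 were not), so none was rounded. Group and replicate came from the sample titles, and no batch is given.

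From these counts, genes were filtered with filterByExpr, scaled by TMM and compared with a robust quasi-likelihood F test in edgeR 4.0.16 (R 4.3.3; ~ group; biological coefficient of variation 0.235). Adjusted p is Benjamini-Hochberg over 15392 genes. Standard errors were taken as the absolute log2 change over the root of F. The 95% intervals use the denominator degrees of freedom of the test, worked back from its p and F. For Cyp4a10, with an unadjusted p of 0.989 (edgeR), the residual degrees of freedom were used instead. Levels per kilobase use the union of exons in GENCODE M21, which matched 53355 of 53392 genes by identifier. The fit was tested on simulated data. Sequences and promoters are from RefSeq (GRCm38.p6), searched in Python 3.11.15 and aligned with Biopython 1.88, and shared words of 31 bases were counted over exons and transcripts on either strand. Replicate libraries were checked for duplicates and none were found.

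The 31 genes, the pathway and marker lists and the tests were chosen with earlier results of these data known. Named beside the 31 were Fbp1, Ppara, and of each list the called genes with the 4 smallest adjusted p and any called against the majority; some genes this rule names are not reported here. Alternatives were RLE and upper-quartile factors, library totals alone, no filter, a stricter filter (1 CPM in 5 libraries), DESeq2 1.42.0, limma-voom (limma 3.58.1), no robust shrinkage, a fit without the 8 genes that exceed 1% of a library, a threshold of 0.01, and each library left out in turn.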

Additional observations from a re-analysis of the deposited data

Results flagged for a closer look

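In 4 of 126 groups of 5 livers, 1 liver stood far from the others of its group (Dixon's test at 95%), where chance gives about 1 in 20 groups. Among the 31 genes this was 1 of 62 groups: Cyp4a10 had 550.2 CPM in Fbp1-deleted replicate 8, against 816 to 850.3 CPM in the other Fbp1-deleted livers. Cyp4a31 had 42.4 CPM in Fbp1-deleted replicate 9, against 8.19 to 18.1 CPM in the other Fbp1-deleted livers. Scp2 had 1768 CPM in WT replicate 4, against 1371 to 1473 CPM in the other WT livers. Acot3 had 169.8 CPM in WT replicate 4, against 337 to 394 CPM in the other WT livers.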

How the results depend on the processing

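Over the 20 alternative settings, between 4 and 6 of the 31 genes were higher and 1 was lower. Leaving out 1 library gave 5 to 6 higher and 1 lower. Etfdh, Hsd17b4, Eci2, Crot and Acaa1a kept their calls under each setting, and Ehhadh under each except the threshold of 0.01 (adjusted p = 0.0125, edgeR). Changes near 0 reversed under some settings, all without a call. With library totals alone, Cpt2 stood at -0.0078, Acadl at -0.024, Etfa at -0.069 and Bdh1 at -0.029 (log2 change). With upper-quartile factors, Acadl stood at -0.0075, Etfa at -0.054 and Bdh1 at -0.010, and with limma-voom Cyp4a10 stood at 0.042. Leaving out 1 library gave -0.14 to 0.013 for Acads, -0.11 to 0.0068 for Hadh, -0.12 to 0.052 for Eci1, -0.011 to 0.053 for Etfa, -0.11 to 0.22 for Cyp4a10 and -0.012 to 0.16 for Bdh1. The cause was not tested. Over all genes, 1636 were higher and 1542 lower, against 1086 higher and 1019 lower without Fbp1-deleted replicate 6, 1066 higher without Fbp1-deleted replicate 9, and 678 higher and 633 lower at a threshold of 0.01. No paired analysis was possible because the groups share no replicate numbers.

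With 5 livers per group, the 95% intervals given for the mitochondrial genes leave room for changes as large as their bounds. Each of the 31 genes had at least 644 counts in every library. The 9 genes that share over 10% of their 31-base words with other genes are Acadvl, Hadhb, Etfa, Etfb, Acaa1a, Acaa1b, Eci2, Cyp4a10 and Bdh1. For these genes the error of dividing reads was not measured, and the spread between livers need not show it.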
